A study of Mus musculus with 2 samples.

Results

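The annexins are the 10 mouse genes Anxa1 to Anxa9 and Anxa11, chosen by gene symbol among the rows of a microarray of the corneal epithelium. Of these 10 genes, 9 had a row of their own, against 30671 genes with a row of their own in the whole table, and Anxa11 was found only on rows that it shares with other genes. The injured sample is corneal epithelium of C57BL/6 mice collected about 48 hours after wounding, with 10% of the wound still to close. The wound had removed all layers of the epithelium up to the limbus with a 0.5 mm rust ring remover. The uninjured sample is epithelium of the fellow eyes, which were not wounded, collected at the same time. Both samples came from male and female mice aged 8 weeks that had been given ketamine and xylazine as anaesthetic. How many mice were pooled is not stated in the labels. Each group has 1 array, so no difference has a replicate check, no test was run, and each value describes these 2 arrays.

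Annexins are soluble proteins that bind membranes rich in acidic lipids, phosphatidylserine above all, when calcium rises. Each has a conserved core built from repeats that hold the calcium sites and a variable N-terminal part that binds partners such as S100 proteins. In epithelia they take part in membrane trafficking, in the closing of torn plasma membranes, in the anchoring of actin to membranes and in the control of inflammation. These roles are background and were not measured here.

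The deposited values are log2 intensities. A gene counted as measured when the brighter of its 2 values reached 5.44, the median of the whole table, which is called the low-signal level here. A difference is the injured minus the uninjured log2 value, and a gene was called higher or lower when this difference was 1 or more in size, which is 2-fold. This left 19492 measured genes, and all 9 annexins with a row of their own were among them. Of the 19492 genes, 4.14% were called higher in the injured epithelium and 3.92% called lower. Negative differences, of any size, made up 40.8% of the 19492. No error between samples can be had from 1 array per group. Rows of one gene on the same 2 arrays disagreed by an SD of 0.243 in their log2 differences, over 538 rows of 254 genes. This SD holds no variation between samples, and since each of the 9 annexins has a single row it comes from other genes.

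The tissue label was set against marker genes. The basal epithelial keratin Krt5 had a log2 intensity of 13.69 in injured and 13.85 in uninjured epithelium, and the cornea-specific keratin Krt12 had 10.85 in injured and 14.07 in uninjured epithelium, so both were bright in both arrays. Pax6, the transcription factor of eye development, had 9.31 in injured and 10.63 in uninjured epithelium. Of 9 measured corneal epithelial markers 3 were called higher (Krt14, Cldn1 and Epcam) and 3 lower (Krt12, Pax6 and Aldh3a1). Over all measured genes 4.14% were called higher and 3.92% lower, which is the background for each count of called markers here. The basal keratin Krt14 had 13.38 in injured and 11.16 in uninjured epithelium, and the corneal crystallin Aldh3a1 had 10.98 in injured and 13.66 in uninjured epithelium. The summed linear intensity of the 9 was 34322.5 in injured and 52504.1 in uninjured epithelium. Krt12, with a linear 1846.6 in injured and 17237.7 in uninjured epithelium, and Aldh3a1, with 2015.1 and 12920.5, decide that direction. Their gaps together are wider than that of the sums. Of the 9, 4 were brighter in the injured array and 5 dimmer, and Krt14 had a linear 10697.2 in injured and 2285.2 in uninjured epithelium. Leukocytes, conjunctiva and stroma also express annexins. Of 14 leukocyte markers 10 were measured, with a median difference of 0.22, against 0.06 over all measured genes. Among these 10, 9 were brighter in the injured array, where 40.8% of all measured genes had a negative difference. The median of 0.22 is below the SD of 0.243 between rows of one gene. Several of the 9 lay near the low-signal level of 5.44, such as Tyrobp with 5.70 in injured and 5.49 in uninjured epithelium. Fcer1g reached that level only in the injured array, with 5.57 in injured and 5.08 in uninjured epithelium. S100a9 was called higher and the integrin gene Itgam lower, with 8.72 in injured and 10.26 in uninjured epithelium. The summed linear intensity of all 14 was 1254.3 in injured and 1760.8 in uninjured epithelium, and Itgam alone decides that direction: without it the sum of the other 13 was 833.8 in injured and 532.9 in uninjured epithelium. The pan-leukocyte gene Ptprc, the macrophage gene Adgre1, the neutrophil alarmin S100a8 and the B cell gene Ms4a1 lay below the low-signal level in both arrays. No marker is at 0, since the lowest value of the table is 2.54. The neutrophil gene Ly6g had 5.58 in injured and 5.44 in uninjured epithelium. S100a9, which stressed epithelium also makes, had 7.67 in injured and 5.77 in uninjured epithelium. Of 7 conjunctival and goblet cell markers 2, Krt8 and Krt19, were at least 2-fold higher and 1, Muc5ac, lower, with a summed linear intensity of 11618.2 in injured and 9951.6 in uninjured epithelium. The linear intensity of Krt19 alone was 3291.5 in injured and 1527.0 in uninjured epithelium, a wider gap than that of the sums. The conjunctival keratins Krt13, with 11.77 in injured and 12.06 in uninjured epithelium, and Krt4, with 11.98 and 11.85, were bright in both arrays. Both were less than 2-fold apart. How much conjunctiva the samples hold was not tested. Of 8 stromal markers 0 were higher and 1, Dcn, was lower, with sums of 620.2 in injured and 648.5 in uninjured epithelium. Of 6 endothelial markers 1, Col8a1, was higher and 0 lower, with sums of 375.6 in injured and 325.3 in uninjured epithelium. The linear intensity of Col8a1 alone was 81.7 in injured and 30.9 in uninjured epithelium, again a wider gap than that of the sums. Its uninjured log2 value of 4.95 is below the low-signal level. The part of these markers in the annexin differences was not tested. Fewer cells of a type and less RNA per cell cannot be told apart in such bulk samples.

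The RefSeq promoter table (GRCm38.p6) holds 11 starts of 8 annexin members. The stretches of 250 bases that end just before a start are shown for 3 of them: those of Anxa1 and Anxa9, which among the 7 of these genes with a row of their own had the highest and the lowest difference, and that of Anxa2, the one member whose stretch holds the AP-1 letters. Capitals mark the AP-1 letters TGANTCA. They also mark the letters TATAAA, known as the box that places the start of transcription in some genes. The GC box, GGGCGG, is capitalised as well. Each was searched on both strands, and none of the marked matches overlap.
Anxa1, chr19:20390672-20390921, minus strand: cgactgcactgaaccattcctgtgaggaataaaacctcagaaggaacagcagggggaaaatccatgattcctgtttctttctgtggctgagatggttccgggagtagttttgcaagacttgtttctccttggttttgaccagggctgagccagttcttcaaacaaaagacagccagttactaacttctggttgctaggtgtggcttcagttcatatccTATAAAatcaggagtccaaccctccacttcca
Anxa9 upstream start, chr3:95315181-95315430, minus strand: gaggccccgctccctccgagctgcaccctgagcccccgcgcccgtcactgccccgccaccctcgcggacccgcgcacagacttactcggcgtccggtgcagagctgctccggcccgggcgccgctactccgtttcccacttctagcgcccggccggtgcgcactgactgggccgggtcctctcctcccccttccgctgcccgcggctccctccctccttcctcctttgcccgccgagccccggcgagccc
Anxa9 downstream start, chr3:95307193-95307442, minus strand: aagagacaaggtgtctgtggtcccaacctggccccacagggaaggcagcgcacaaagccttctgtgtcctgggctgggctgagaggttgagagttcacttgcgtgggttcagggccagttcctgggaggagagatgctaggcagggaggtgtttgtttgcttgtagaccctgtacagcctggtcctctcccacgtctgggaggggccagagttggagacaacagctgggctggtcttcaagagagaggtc
Anxa2, chr9:69453433-69453682, plus strand: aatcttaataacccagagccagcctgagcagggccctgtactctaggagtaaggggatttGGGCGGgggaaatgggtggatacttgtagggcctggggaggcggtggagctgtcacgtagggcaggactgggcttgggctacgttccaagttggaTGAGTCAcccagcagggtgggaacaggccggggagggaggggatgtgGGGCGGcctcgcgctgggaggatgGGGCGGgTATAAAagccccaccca
The Anxa1 stretch has a TATA box that begins 32 bases before the start, 2 CpG pairs and 46.0% G and C. The upstream Anxa9 stretch has 30 CpG pairs and 75.6% G and C, and its downstream stretch has 3 CpG pairs and 58.8%. None of the letters in capitals occurs in the Anxa9 stretches. The median over all 32851 promoters was 6 CpG pairs and 52.4% G and C. The Anxa2 stretch has an AP-1 match that begins 95 bases before the start, a TATA box that begins 17 bases before it and 3 GC boxes.

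Among the 11 annexin stretches, 1 held TGANTCA, against 6.75% of all promoters of that length. TATAAA was in 2 of them, those of Anxa1 and Anxa2, against 12.4% of all promoters. GGGCGG was in 4 stretches, of Anxa2, Anxa7 and Anxa11, against 32.7% of all promoters. The Anxa7 stretches overlap and share 1 of these matches. One arm of the glucocorticoid receptor's element, TGTTCT, searched in the same way and not capitalised, was in 1 stretch, that of the downstream start of Anxa4, against 16.1% of all promoters. It was not among the letters of the Anxa1 stretch. These matches describe the letters of the windows and nothing more.

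Annexins differed in both directions. Anxa3 was at least 2-fold higher, Anxa9 and Anxa6 were at least 2-fold lower, and the other 6 measured members were less than 2-fold apart. Thus 1 of 9 was called higher, where 4.14% of all measured genes were, and 2 of 9 lower, where 3.92% of all measured genes were. All 9 annexins were above the 75th percentile of the table (6.93) in both arrays, and among all genes that bright in either array 6.14% were called higher and 5.77% lower. The median difference of the 9 members was -0.12, against 0.06 over all measured genes. The median size of the difference, whatever its direction, was 0.64 in the 9 members and 0.22 in all measured genes. The 0.22 takes in dimmer genes, and brighter genes differed more. A size of 0.485 or more, which is 2 times the SD between rows of one gene, was found in 24.9% of all measured genes. Among genes above the 75th percentile in either array it was found in 34.3%, and in the family in 6 of 9. The differences ran from -2.11 to 2.65, and 3 members were brighter after injury while 6 were dimmer.

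**Figure D1:**
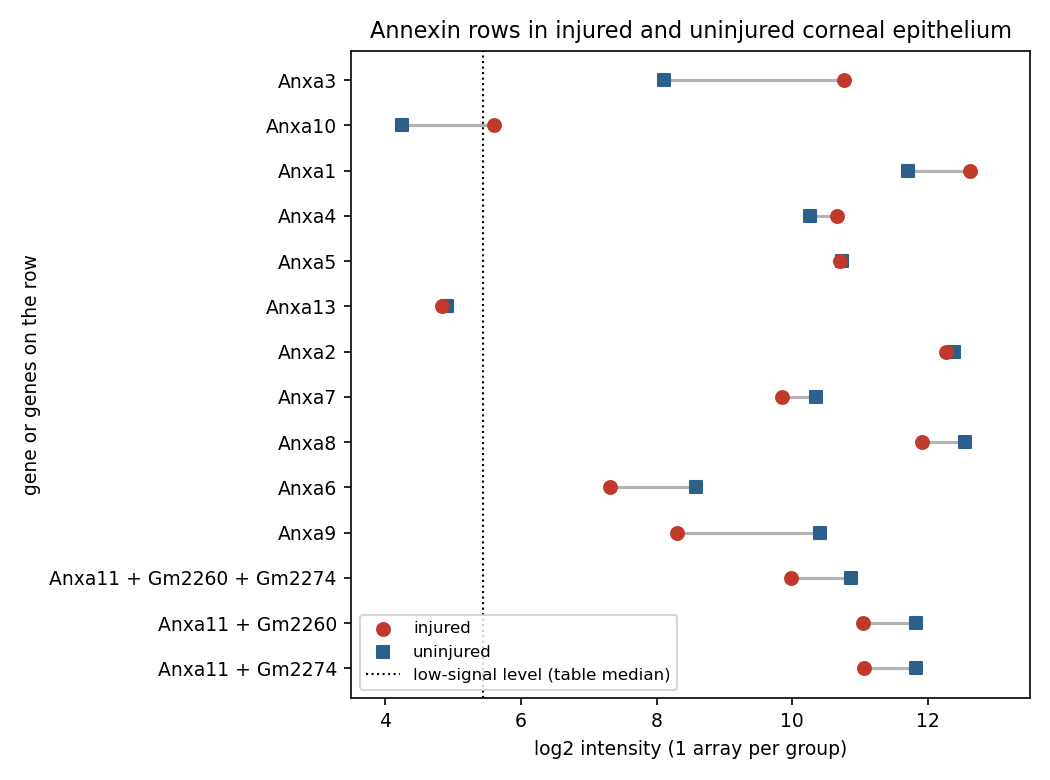
Log2 intensity of each annexin row in the injured (circles) and uninjured (squares) array, 1 array per group, with lines joining the 2 values and a dotted line at the low-signal level of 5.44. Anxa3 has its injured value far to the right of its uninjured one, Anxa9 and Anxa6 the reverse, and the 3 rows that Anxa11 shares with Gm2260 or Gm2274 are all lower in the injured array.

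Anxa3 had the highest difference of the family. Its log2 intensity was 10.77 in injured and 8.11 in uninjured epithelium, a difference of 2.65 or 6.29-fold. Both values lie well above the low-signal level. Only 53 measured genes, 0.272% of them, had a larger positive difference. Anxa3 encodes annexin A3, a protein known in humans from neutrophils, where it acts in granule fusion, and its gene is also active in several epithelia. Among the leukocyte markers, 4 used for neutrophils differed by 1.89 (S100a9), 1.55 (S100a8, with both values below the low-signal level), 0.38 (the receptor gene Csf3r) and 0.14 (Ly6g). Itgam, which neutrophils share with other leukocytes, went the other way with a difference of -1.55. The part of these markers in the Anxa3 difference was not tested.

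Anxa1 was also brighter in the injured array but less than 2-fold. It had 12.61 in injured and 11.70 in uninjured epithelium, a difference of 0.91 or 1.88-fold, just inside the 2-fold limit. Its protein, annexin A1, is induced by glucocorticoids, restrains phospholipase A2 activity and limits leukocyte entry through formyl peptide receptors. A larger positive difference was found in 1002 measured genes (5.14%). Anxa4, an annexin of secretory epithelia that gathers at apical membranes, had 10.66 in injured and 10.25 in uninjured epithelium, a difference of 0.40.

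Anxa2 and Anxa5 were nearly level between the arrays. Anxa2, whose protein joins S100a10 in a complex that binds plasminogen and tissue plasminogen activator at the cell surface, had 12.27 in injured and 12.39 in uninjured epithelium, a difference of -0.12. Anxa5, whose protein coats exposed phosphatidylserine and is used as a probe of dying cells, had 10.71 in injured and 10.73 in uninjured epithelium, a difference of -0.02. These 2 differences are below the SD between rows of one gene, as were those of 53.6% of all measured genes, and that SD leaves out variation between samples. With 1 array per group this does not show that either gene was unchanged.

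Anxa9 had the lowest difference of the family. Its log2 intensity was 8.30 in injured and 10.41 in uninjured epithelium, a difference of -2.11 or 4.32-fold lower. A more negative difference was found in 135 measured genes (0.693%). Annexin A9 is an unusual member: the human protein has lost calcium binding in its core repeats, it occurs in stratified epithelium and it is bound by autoantibodies in pemphigus. Anxa6 had 7.32 in injured and 8.58 in uninjured epithelium, a difference of -1.26 or 2.39-fold lower. Annexin A6 is the largest of the family, with a tandem copy of the core, and acts in endocytosis, in cholesterol traffic and in the cap that seals membrane tears. More negative differences were found in 458 measured genes (2.35%).

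Anxa7 and Anxa8 were dimmer in the injured array but less than 2-fold apart. Anxa8, an annexin of stratified epithelia with anticoagulant activity that also acts on late endosomes, had 11.90 in injured and 12.54 in uninjured epithelium, a difference of -0.64 or 1.55-fold. Anxa7, also called synexin, promotes membrane fusion and binds the calcium sensor sorcin. It had 9.85 in injured and 10.35 in uninjured epithelium, a difference of -0.50. More negative differences were found in 1550 measured genes (7.95%) for Anxa8 and in 2040 (10.5%) for Anxa7.

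Anxa11, whose protein binds S100a6, acts at the midbody of dividing cells and tethers RNA granules to lysosomes, has no row of its own. It shares 3 rows with the transcribed pseudogenes Gm2260 and Gm2274 of the same chromosome, so these values belong to no single gene. The row of all 3 genes had 9.98 in injured and 10.87 in uninjured epithelium, a difference of -0.89. The row shared with Gm2260 had 11.04 in injured and 11.82 in uninjured epithelium, a difference of -0.77. The row shared with Gm2274 had 11.06 in injured and 11.83 in uninjured epithelium, a difference of -0.77. All 3 rows were dimmer in the injured array and less than 2-fold apart. The share of the signal that comes from Anxa11 is uncertain, and the rows were not counted among the 9 members.

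The mouse has other annexins outside the 10. Anxa10, a divergent annexin known from the stomach, had 5.60 in injured and 4.25 in uninjured epithelium, a difference of 1.35. Its injured value is just above the low-signal level and its uninjured value below it, so the size of this difference is uncertain. Anxa13, an annexin of intestine and kidney epithelium, had 4.84 in injured and 4.91 in uninjured epithelium, both below the low-signal level.

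**Figure D2:**
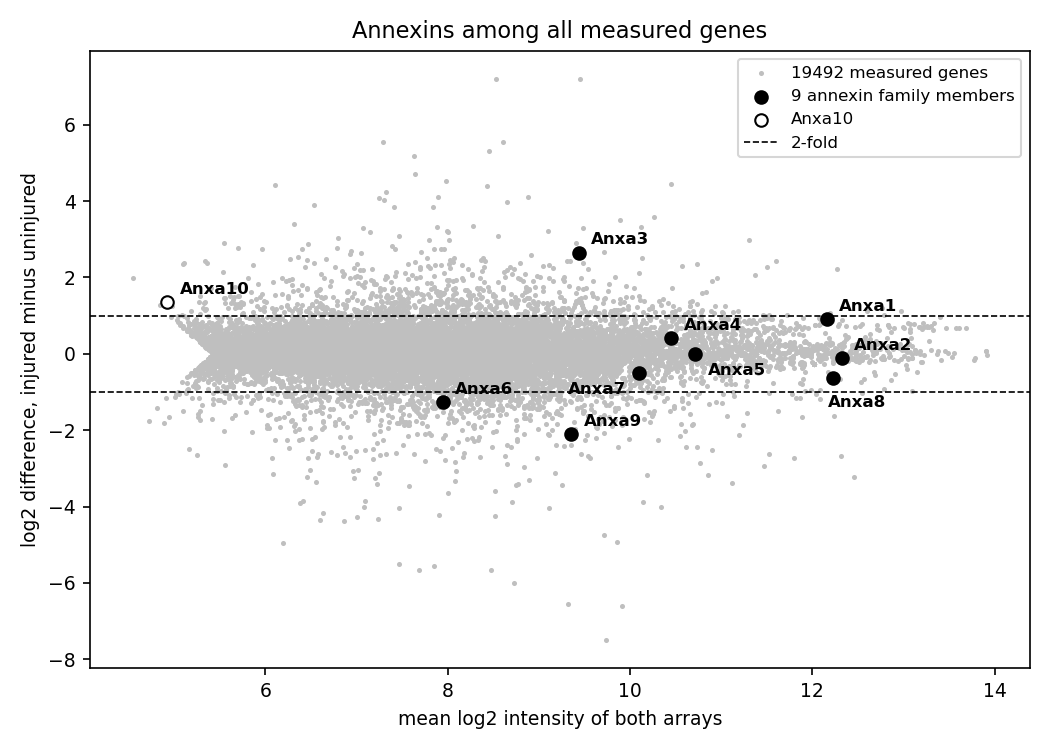
Log2 difference, injured minus uninjured, of each of the 19492 measured genes (grey) against its mean log2 intensity over both arrays, with the 9 annexins in black, Anxa10 as an open circle and dashed lines at 2-fold. Anxa3 (2.65), Anxa6 (-1.26), Anxa9 (-2.11) and the dim Anxa10 (1.35) lie outside the dashed lines and Anxa1 (0.91) just inside the upper one.

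The nearest measured protein-coding gene on either side was set beside each annexin, by order along the chromosome in RefSeq and passing over genes without a measured row. None of these neighbours is itself an annexin. Not all are adjacent: the farthest, Slmap, is the 13th protein-coding gene after Anxa11. Of the 20 neighbours of the 10 annexins, 2 were at least 2-fold apart, where 8.06% of all measured genes were, and the median difference of the 20 was -0.10. That share is near the one over all measured genes. Beside Anxa3 lies Fras1, an extracellular matrix protein of epithelial basement membranes, with 5.49 in injured and 8.54 in uninjured epithelium, a difference of -3.05. Beside Anxa1 lies Aldh1a1, a corneal crystallin and retinaldehyde dehydrogenase, with 7.24 in injured and 10.54 in uninjured epithelium, a difference of -3.30. The other neighbour of Anxa3, Bmp2k, differed by -0.19 and that of Anxa1, Rorb, by -0.50. The neighbours of Anxa4, Gmcl1 and Aak1, differed by -0.01 and -0.81. The neighbours of Anxa9, Mindy1 and Cers2, differed by -0.36 and 0.20, and those of Anxa6, Tnip1 and Ccdc69, by -0.08 and -0.24. The rule picks genes by position alone and was added after the annexin values were seen. Next to Anxa10, the interferon-induced helicase gene Ddx60 had 5.62 in injured and 8.08 in uninjured epithelium.

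**Figure D3:**
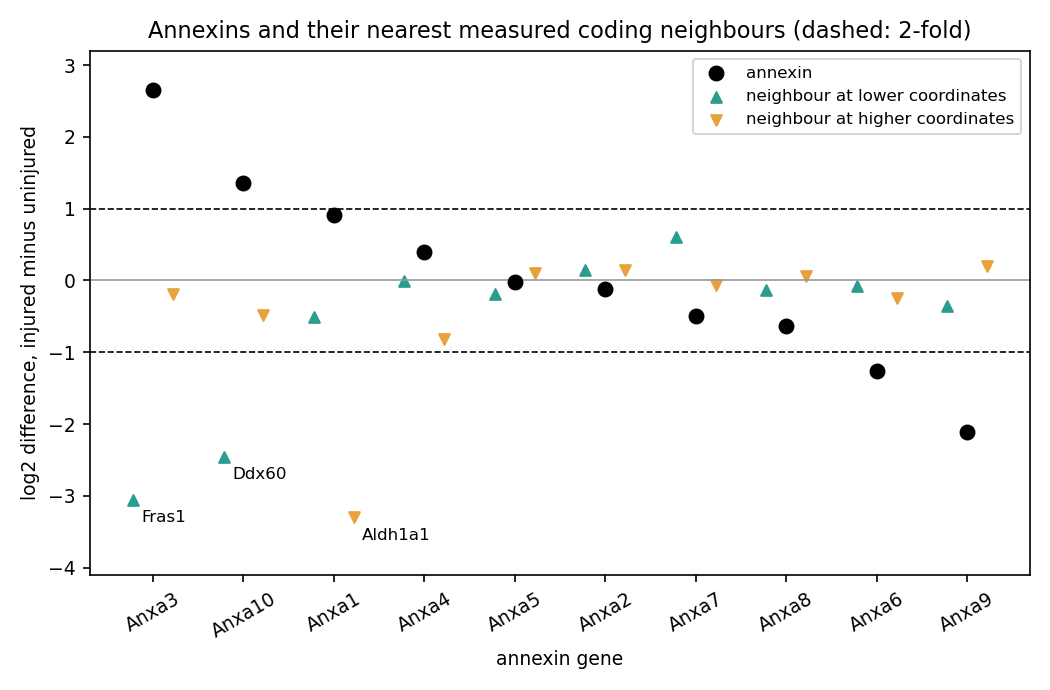
Log2 difference, injured minus uninjured, of each annexin (circles) and of its nearest measured protein-coding neighbours at lower (triangles up) and higher (triangles down) coordinates, with dashed lines at 2-fold. Fras1 beside Anxa3 (-3.05), Aldh1a1 beside Anxa1 (-3.30) and Ddx60 beside Anxa10 (-2.45) are the neighbours outside the lines, and Anxa11 is left out because it has no row of its own.

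Genes that work with annexins were described from lists. S100 proteins bind annexin N-terminal parts and bridge membranes. Of 9 genes in that list 7 were measured, 0 were at least 2-fold higher and 1 lower, where 3.92% of all measured genes were lower, and the median difference was -0.05, against 0.06 over all measured genes. S100a10, the partner of Anxa2, had 8.61 in injured and 8.82 in uninjured epithelium, a difference of -0.21. S100a6, which binds several annexins including annexin A11, had 11.88 in injured and 11.93 in uninjured epithelium. S100a11, the partner of Anxa1, was found only on a row shared with a predicted gene and a pseudogene, which had 13.76 in injured and 13.61 in uninjured epithelium. The 1 gene called lower was Ahnak2, a giant scaffold protein related to Ahnak, with 8.41 in injured and 9.96 in uninjured epithelium (-1.55). Ahnak, which the complex of Anxa2 and S100a10 binds at the membrane, shares its row with a microRNA gene, and that row had 10.47 in injured and 10.79 in uninjured epithelium.

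Of 8 measured genes of plasminogen activation, the system that docks on Anxa2 and S100a10, 4 were called higher and 0 lower, where 4.14% of all measured genes were called higher. The median difference of the 8 was 0.80, beside the difference of -0.12 for Anxa2 itself. The tissue-type activator Plat had 9.26 in injured and 7.74 in uninjured epithelium (1.52). The urokinase Plau had 9.18 in injured and 7.49 in uninjured epithelium (1.69), and its receptor Plaur had 8.64 in injured and 6.66 in uninjured epithelium (1.97). The inhibitor Serpinb2 had 10.22 in injured and 5.04 in uninjured epithelium (5.18). The uninjured value is below the low-signal level, so the size of that difference is uncertain. The median depends on how dim genes are treated: it was 0.08 over the 7 genes with both values above the low-signal level and 1.69 over the 5 genes above the 75th percentile in either array. Of those 5, Plaur and Serpinb2 passed the 75th percentile of 6.93 only through their injured values. That filter thus keeps genes because they are high in the injured array, and its median is no support for a rise. Plgrkt, a plasminogen receptor, had 7.32 in injured and 8.23 in uninjured epithelium (-0.91).

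Genes of plasma membrane repair, the process in which annexins form a cap over a tear, had a median difference of -0.33 over 27 measured genes, against 0.06 over all measured genes. Of the 27, 21 differences (77.8%) were negative, where 40.8% of all measured genes had a negative one. In either array 23 of the 27 were above the 75th percentile. Their median was -0.33, against 0.05 over all genes that bright, of which 5.77% were called lower. The share of negative differences among genes that bright was not computed. In the list 4 genes (14.8%) were called lower and 0 higher, where 3.92% of all measured genes were called lower. Chmp4c, an ESCRT-III subunit that acts in membrane scission, had 7.65 in injured and 9.26 in uninjured epithelium (-1.60). The calcium-activated protease Capn1 had 10.58 in injured and 11.70 in uninjured epithelium (-1.11). The penta-EF-hand protein Gca, or grancalcin, had 5.35 in injured and 6.48 in uninjured epithelium (-1.12), with the injured value below the low-signal level. Sri, or sorcin, which binds annexins A7 and A11, had 6.62 in injured and 7.63 in uninjured epithelium (-1.01). The ferlins that bring vesicles to the tear showed small differences, Myof with 10.55 in injured and 10.40 in uninjured epithelium and Dysf with 5.94 in injured and 5.74 in uninjured epithelium.

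The list of formyl peptide receptors, phospholipases and lipoxygenases, which surrounds the anti-inflammatory action of Anxa1, had 7 of 15 genes measured, with 0 at least 2-fold higher, 1 lower (3.92% of all measured genes were) and a median of -0.13. No row carries the name of Fpr1, Fpr2 or Fpr3, and these receptors were not analysed here. The related receptor Fpr-rs3 had 5.87 in injured and 6.00 in uninjured epithelium, near the low-signal level. The cytosolic phospholipase Pla2g4a had 8.93 in injured and 9.23 in uninjured epithelium (-0.30). The lipoxygenase Alox15 had 7.82 in injured and 9.07 in uninjured epithelium (-1.25). Over the 3 genes above the 75th percentile in either array the median was -0.84.

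The glucocorticoid list holds the receptor gene, genes of enzymes that act on glucocorticoids and genes that glucocorticoids are known to induce. It had a median difference of -0.47 over 14 measured genes, against 0.06 over all measured genes. Of the 14, 11 differences (78.6%) were negative, where 40.8% of all measured genes had a negative one. In either array 12 of the 14 were above the 75th percentile. Their median was -0.53, against 0.05 over all genes that bright, of which 5.77% were called lower. The share of negative differences was not computed for genes that bright. In the list 0 genes were called higher and 1 (7.14%) lower, where 3.92% of all measured genes were called lower. The 1 called lower was Tsc22d3, the leucine zipper protein GILZ, with 6.53 in injured and 7.85 in uninjured epithelium (-1.32). The receptor Nr3c1 had 7.92 in injured and 8.74 in uninjured epithelium (-0.82), and the chaperone Fkbp5 had 6.64 in injured and 7.34 in uninjured epithelium (-0.70). Both are less than 2-fold apart. The 3 measured members that were brighter in the injured array were also less than 2-fold apart. Ddit4, an inhibitor of mTOR signalling, had 7.81 in injured and 6.87 in uninjured epithelium (0.93). Hsd11b2, the enzyme that inactivates glucocorticoids, had 5.96 in injured and 5.63 in uninjured epithelium (0.33), and the transcription factor Cebpd had 6.45 in injured and 6.32 in uninjured epithelium (0.13). Tsc22d3 and Fkbp5 passed the 75th percentile of 6.93 only by their uninjured values, and Ddit4 only by its injured value.

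**Figure D4:**
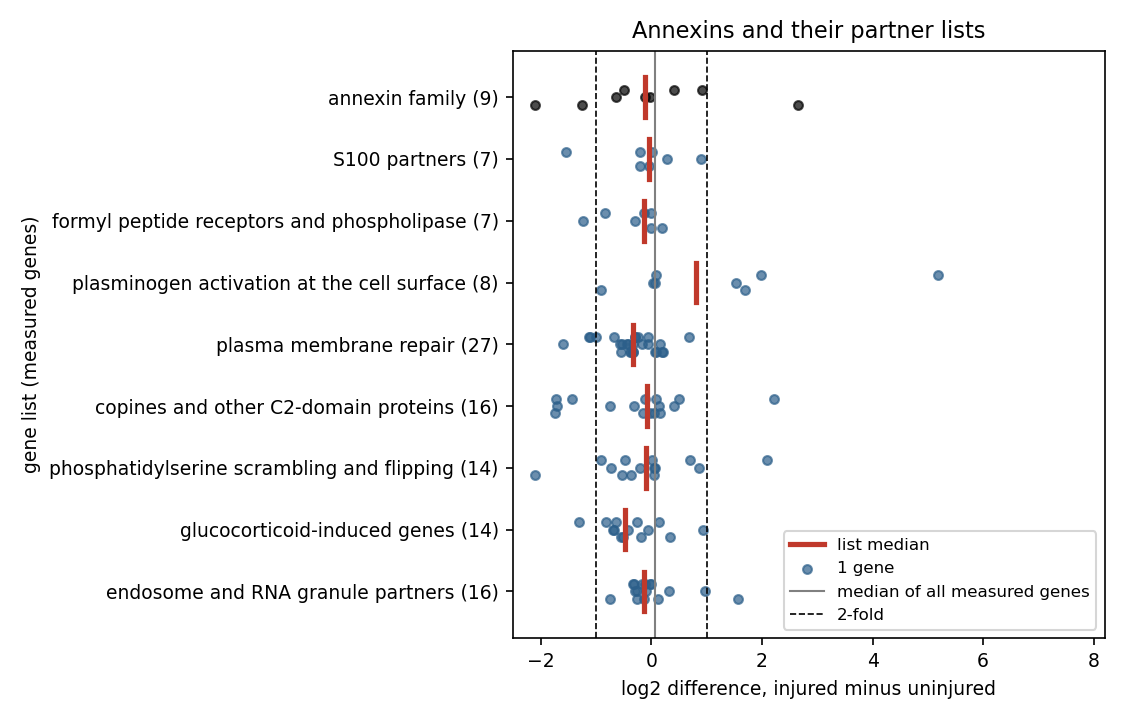
Log2 difference, injured minus uninjured, of each measured gene of the annexin family and of 8 partner lists (points, number of measured genes in brackets), with list medians as red bars, the median of all measured genes as a grey line and 2-fold as dashed lines. The plasminogen list has its median (0.80) to the right of the others, and the glucocorticoid list (-0.47) and the membrane repair list (-0.33) have theirs to the left.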

How the data were processed

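The deposited table holds 65952 rows, each a transcript cluster, and 2 columns of log2 intensities made by the authors. Per the labels' protocols, 2 µg of total RNA was amplified into biotin-labelled cRNA and hybridised. Agilent Feature Extraction 9.1 is named in the submitters' processing notes. Whether that software belongs with the biotin label and the transcript cluster rows was not settled here. The background correction, probe summary, normalization and genome build are not stated there. The columns had medians of 5.44 (injured) and 5.43 (uninjured) and were kept as deposited. No detection or saturation calls were used.

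Rows were named from the platform annotation, with symbols updated through RefSeq (GRCm38.p6): 31219 carried 1 gene, 1527 several and 33206 are unnamed here. Rows with several genes stand for no gene. A gene with several measured rows was represented by its brightest row on average. With 1 array per group no test was run. The gene table was tested on simulated data with shifts larger than the 2-fold limit and less noise than rows of one gene show here. That checks the code and says nothing about the error of the calls. The members and lists were chosen with earlier results of these data known. Named genes were all annexins, up to 5 members per list at least 2-fold apart, and S100a10, S100a11, S100a6, Fpr1, Fpr2, Ahnak, Krt12 and Pax6. Neighbours, markers and further list members that were not 2-fold apart were chosen after their values were seen, as was the leukocyte sum without Itgam. Alternatives were 4 scalings, 3 low-signal filters, 2 choices of row, an added constant and thresholds of 1.5-fold and 4-fold. Python 3.11.15, numpy, pandas, statsmodels and matplotlib were used. The number of arrays limits the precision.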

Additional observations from a re-analysis of the deposited data

How the results depend on the processing

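The differences of the 9 annexins kept their direction and their side of the 2-fold threshold under loess (span 0.3) and quantile normalization, scaling to equal 75th percentiles or medians and, before the log2 step, an added constant of 13.9. None of these 45 values moved by more than the SD between rows of one gene, which holds no variation between samples. The low-signal filters and the mean of a gene's rows could not move the other 36 values, since each annexin has 1 row with both values above the 75th percentile. Anxa3 lay between 2.59 and 2.65, Anxa1 between 0.89 and 0.93, Anxa6 between -1.27 and -1.19 and Anxa9 between -2.15 and -2.06. The median of the 9 members lay between -0.13 and -0.10. At 1.5-fold, 2 annexins were higher (Anxa1 joining Anxa3) and 3 lower (Anxa8 joining Anxa6 and Anxa9), and at 4-fold 1 was higher and 1 lower (Anxa3 and Anxa9). The shares of all measured genes past 1.5-fold and 4-fold were not computed, so these counts have no background beside them. Of 72 medians of partner lists under the alternatives, 69 moved by less than that SD. The plasminogen median was 0.082 with both values above the low-signal level and 1.69 with the brighter value above the 75th percentile, and the median of the formyl peptide receptor list was -0.84 under that last filter. Those filters left 7, 5 and 3 genes. Of the 5, Plaur and Serpinb2 passed only through their injured values. The second row of a gene could not be used, since each annexin has 1 row of its own and each list had fewer than 3 genes with one. No paired analysis was possible because each group has 1 sample. No replicate could be left out for the same reason.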

Other observations

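Of 14 measured genes for enzymes and channels that move phosphatidylserine across the membrane, 1 was called higher and 1 called lower by the 2-fold rule, where 4.14% of all measured genes were called higher and 3.92% lower, and the median difference was -0.10. Ano6, the calcium-activated scramblase that exposes phosphatidylserine, had 7.66 in injured and 5.57 in uninjured epithelium (2.09), the uninjured value close to the low-signal level of 5.44. Plscr4, a phospholipid scramblase family member, had 6.14 in injured and 8.25 in uninjured epithelium (-2.11).

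Copines and other C2-domain proteins, which also bind phospholipids when calcium rises, had a median of -0.07 over 16 measured genes, of which 1 (6.25%) was called higher and 4 (25.0%) were called lower, where 4.14% of all measured genes were called higher and 3.92% lower. The copine Cpne2 had 8.80 in injured and 6.59 in uninjured epithelium (2.21). Mctp2, a C2-domain protein of the endoplasmic reticulum, had 8.03 in injured and 9.77 in uninjured epithelium (-1.74), and Mctp1 had 4.56 in injured and 6.27 in uninjured epithelium (-1.71), its injured value below the low-signal level. The Rab27 effector Sytl1 had 7.89 in injured and 9.62 in uninjured epithelium (-1.73). Esyt3, which tethers the endoplasmic reticulum to the plasma membrane, had 7.47 in injured and 8.90 in uninjured epithelium (-1.43). Of 16 measured genes of endosomes and RNA granules, 12 had a negative difference, where 40.8% of all measured genes had one. Negative differences were thus frequent here too, beside 21 of 27 in the membrane repair list and 11 of 14 in the glucocorticoid list. The median of the 16 was -0.13. Among these 16, 1 gene (6.25%) was called higher, where 4.14% of all measured genes were, and 0 lower. That gene was the tetraspanin Cd63 of late endosomes, with 8.74 in injured and 7.17 in uninjured epithelium (1.56).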
